A study of Mus musculus with 81 samples.

Results

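Blood drawn minutes after an intravenous transfer of naïve OT-1 T cells was compared between 2 transfer sizes, in 19 of the 81 TCRβ libraries of the study. The libraries were chosen by their labels: 5 from naïve mice on day 65, which received 5e5 OT-1 cells, and 14 from the treatment experiment on day 0, which received 1e6 OT-1 cells. All recipients were CD45.1 Pep Boy mice, a C57BL/6 strain with a congenic CD45 marker, and all donors were OT-1 mice, whose CD8+ T cells carry 1 transgenic TCR. The naïve mice were age-matched to previously cured mice of the same experiment, had no tumor at this bleed, had received no red blood cell product, and were challenged with EG7.OVA on the following day. The day 0 mice carried subcutaneous EG7.OVA tumors, a lymphoma line derived from EL4 T-lymphoma cells that expresses ovalbumin (OVA), and were bled before their first dose. They were later given mRBC-CTRL, unmodified mouse red blood cells, at 1e9 cells (5 mice), or mRBC-OVA-4-1BBL-IL-12, red blood cells that carry an OVA peptide on MHC class I with the ligand 4-1BBL and the cytokine IL-12, at 2.5e8 (5 mice) or 1e9 cells (4 mice; mouse 1 of this group was not analysed here). None of these products had been given when the blood was drawn. The paper's methods place both bleeds minutes after transfer, but the labels of the naïve mice do not give the time. Transfer size, tumor, experiment and OT-1 cell preparation differ together between the 2 sets of mice, so their parts in any difference cannot be told apart. Recipient age, which the sources used here do not give, may differ as well.

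Each T cell assembles its TCRβ gene from V, D and J segments, and the junction, the CDR3, is made almost unique by trimming and by inserted N bases. Sequencing this region from genomic DNA therefore counts TCRβ templates by clone, and a transferred transgenic population appears as a single sequence within a polyclonal repertoire. The number of transgene copies in an OT-1 cell is not given in the sources used here, and with more than 1 copy the share of templates would exceed that of cells, so the values are of templates. The OT-1 TCR recognizes the OVA peptide SIINFEKL on H-2Kb, and its β chain uses a segment of the Vβ5 family. Cells injected into a vein mix with those in circulation and leave blood for spleen and lymph nodes, so a bleed within minutes measures the mixture of injected and resident T cells. A bulk count of templates cannot tell more OT-1 cells from fewer other T cells.

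OT-1 cells were counted as productive (in-frame) templates that encode the CDR3 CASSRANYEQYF. The sequence that carried this count in all 19 libraries is shown first, because every OT-1 value rests on it, and 4 further sequences with the same CDR3 are shown because they recurred in many mice. Capitals mark the last 33 bases, which run from the first codon of the CDR3 to the codon before its last residue.
OT-1 main rearrangement, TCRBV12-01 with TCRBJ02-07, 28695 templates: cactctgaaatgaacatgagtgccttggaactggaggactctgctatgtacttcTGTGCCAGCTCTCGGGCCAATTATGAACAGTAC
1 base away from it, TCRBV12-01, 31 templates in 19 libraries: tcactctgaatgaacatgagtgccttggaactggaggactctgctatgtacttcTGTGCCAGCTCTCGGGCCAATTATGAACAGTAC
TCRBV12-02 upstream part, 29 templates in 17 libraries: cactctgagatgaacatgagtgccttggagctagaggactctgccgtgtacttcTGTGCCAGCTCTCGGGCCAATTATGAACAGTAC
TCRBV13-02 upstream part, 14 templates in 13 libraries: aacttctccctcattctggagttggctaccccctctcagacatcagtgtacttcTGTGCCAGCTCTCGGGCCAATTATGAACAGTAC
TCRBV03-01 upstream part, 20 templates in 12 libraries: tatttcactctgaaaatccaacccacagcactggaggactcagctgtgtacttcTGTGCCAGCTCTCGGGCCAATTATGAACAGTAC

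The OT-1 count was almost entirely the main rearrangement. Of 28943 OT-1 templates in the 19 libraries, 248 belonged to 41 other rearrangements, of which 38 had exactly the same last 33 bases. These 41 fell into 20 assigned to TCRBV12-01, with 105 templates, and 21 assigned to 14 other V segments, with 143 templates. Of the 20, 12 were 1 inserted, deleted or substituted base away from the main sequence. Different V segments stood before an identical junction, and 24 of the 41 rearrangements occurred in several libraries. The share of OT-1 templates in these other rearrangements was 1.15% ± 0.389 (SD, n = 5) in naïve mice and 0.824% ± 0.219 (SD, n = 14) on day 0. That difference had p = 0.0256 by an exact permutation test and 0.0897 after Benjamini-Hochberg adjustment over 7 additional measures. A further 156 templates differed from the main rearrangement by 1 base and did not encode the CDR3, 3 to 13 per library, and all 156 were non-productive. Counting only the main rearrangement changed the difference in OT-1 share between the transfer sizes from -13.4 to -13.3 percentage points.

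The depth of the libraries was 3558 to 7017 productive templates in naïve mice and 3423 to 22304 on day 0. Their means were 5324 ± 1330 (SD, n = 5) and 8311 ± 4951 (SD, n = 14). The difference did not pass the exact permutation test (p = 0.206, or 0.416 after adjustment over the 7 additional measures), which does not show that depths were alike. All mice whose TCRβ was sequenced received OT-1 cells, so no sequenced blood without a transfer gives a background. The 7 cured mice on day 65, which were given OT-1 cells earlier in the experiment, had 0 to 451 OT-1 templates, or up to 4.57% of productive templates. No 2 of the 19 libraries were identical. The lymphoma's own clone, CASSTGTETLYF, had 1 template in each of mRBC-CTRL mice 1 and 2 on day 0 and 0 in the other 17 libraries, which is under the floor of 3 templates in every day 0 library.

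OT-1 was the most abundant CDR3 in 19 of 19 libraries, and it was lower after the smaller transfer in every mouse. In naïve mice 1 to 5, given 5e5 cells, the OT-1 share of productive templates was 7.86%, 12.9%, 10.5%, 10.5% and 11.8%. In mRBC-CTRL mice 1 to 5 on day 0, given 1e6 cells, it was 28.8%, 24.5%, 23.4%, 18.9% and 21.1%. In mice 1 to 5 of the 2.5e8 group it was 24.3%, 17.0%, 23.0%, 28.3% and 20.1%, and in mice 2 to 5 of the 1e9 group 30.5%, 31.3%, 25.0% and 20.9%. The highest naïve mouse, mouse 2 (95% Wilson interval 12.0% to 13.9%), lay 4.05 percentage points under the lowest day 0 mouse, mouse 2 of the 2.5e8 group (95% Wilson interval 16.5% to 17.5%), so the 2 sets did not overlap. The means were 10.7% ± 1.88 (SD, n = 5) and 24.1% ± 4.38 (SD, n = 14). The difference of -13.4 percentage points (95% interval -17.7 to -9.05) had p = 8.6e-05 in a 2-sided exact permutation test over 11628 splits, the smallest p these numbers of mice allow.

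**Figure D1:**
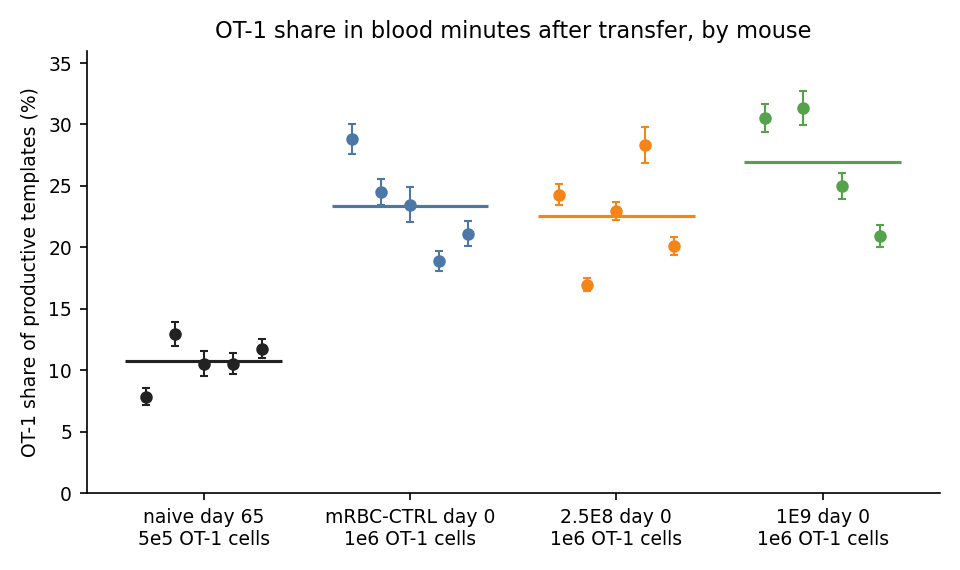
OT-1 share of productive templates (%, vertical axis) in each mouse of the 4 groups (horizontal axis, with the OT-1 cells given). Points are mice in order of their number with 95% Wilson intervals, lines are group means, and the naïve mice, from 7.86% to 12.9%, all lie under the day 0 mice, from 17.0% to 31.3%.

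The difference was present against each day 0 group on its own. The naïve minus day 0 difference was -12.6 percentage points against mRBC-CTRL mice, -11.8 against the 2.5e8 group and -16.2 against the 1e9 group, each with p = 0.00794 in the exact permutation test, the smallest p these numbers of mice allow. The counts behind the shares were 374 to 825 OT-1 templates in naïve mice and 802 to 3785 on day 0. Mean OT-1 templates were 568 ± 171 (SD, n = 5) and 1864 ± 788 (SD, n = 14), and the exact permutation test gave p = 0.00267, or 0.0187 after adjustment over the 7 additional measures. Other productive templates numbered 4756 ± 1204 (SD, n = 5) and 6446 ± 4203 (SD, n = 14), a difference that did not pass the exact permutation test (p = 0.422, adjusted p = 0.591). That does not show that their numbers were alike.

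A share cannot rise in proportion to the cells given, because OT-1 is also part of its denominator, so the ratio of OT-1 to other templates was taken next. Per 100 other productive templates, naïve mice 1 to 5 had 8.53, 14.8, 11.7, 11.8 and 13.3 OT-1 templates. On day 0 the ratio ran from 20.4 over a median of 31.4 to 45.6 per 100, again above every naïve mouse. The 3 highest values, 45.6, 44.0 and 40.4, came from 1e9 mice 3 and 2 and mRBC-CTRL mouse 1. On the log2 scale the ratio differed by -1.40 (95% interval -1.77 to -1.03, exact permutation test, p = 8.6e-05). Day 0 blood thus had 2.64-fold the OT-1 to other ratio of naïve blood (95% interval 2.04 to 3.42), after a 2-fold larger transfer.

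Divided by the number of cells given, the ratios of the 2 sets overlapped. Per 1e6 OT-1 cells given, naïve mice 1 to 5 had 17.1, 29.7, 23.5, 23.6 and 26.6 OT-1 templates per 100 others, with a mean of 24.1 ± 4.69 (SD, n = 5). The day 0 mean was 32.1 ± 7.74 (SD, n = 14). Only naïve mouse 1 was under the lowest day 0 mouse, 5 of the 14 day 0 mice were under the highest naïve mouse, and 0 of the 5 naïve mice were above the day 0 median. The remaining difference was -0.40 on the log2 scale (95% interval -0.77 to -0.03). The OT-1 to other ratio per cell given was thus 1.32-fold higher on day 0 (95% interval 1.02 to 1.71). This difference had p = 0.0361 in the exact permutation test, both before and after adjustment over the 3 OT-1 comparisons.

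This excess in the ratio per cell given was close to the threshold and rested on single mice and groups. Against the 1e9 group alone the log2 difference was -0.62 (p = 0.0397), against mRBC-CTRL alone -0.35 (p = 0.103) and against the 2.5e8 group alone -0.28 (p = 0.214), each by an exact permutation test. Without naïve mouse 1 it was -0.28 (exact permutation test, p = 0.141), and p also rose above 0.05 without naïve mouse 3 (0.0614) or 4 (0.0598), mRBC-CTRL mouse 1 (0.0510) or mouse 4 of the 2.5e8 group (0.0505). Without rearrangements that had 1 template it was -0.29 (exact permutation test, p = 0.138).

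**Figure D2:**
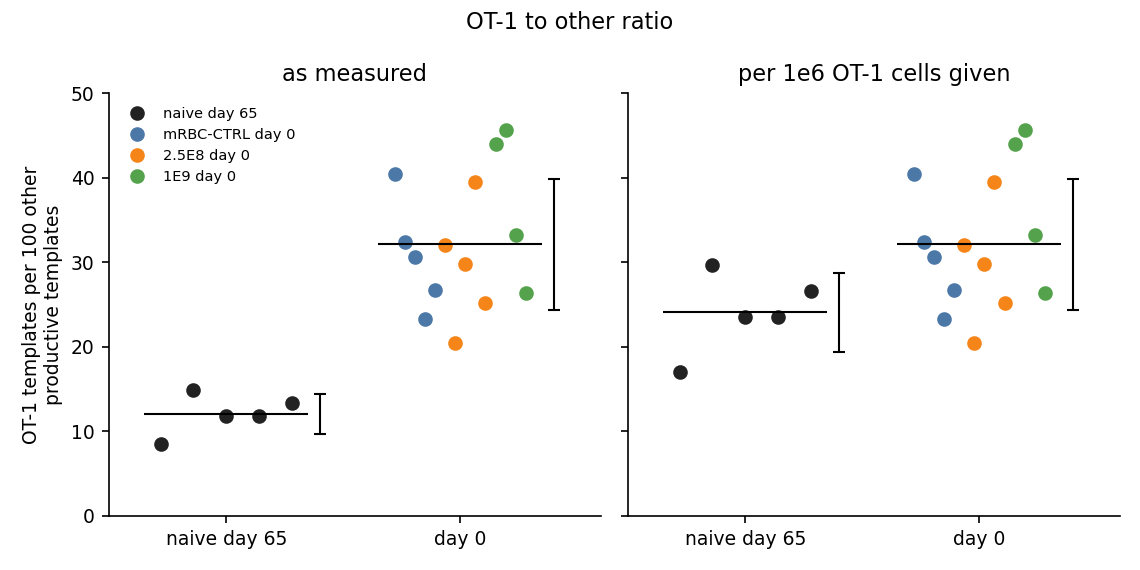
OT-1 templates per 100 other productive templates (vertical axis) for naïve day 65 and day 0 mice, as measured (left) and per 1e6 OT-1 cells given (right). Points are mice coloured by group, lines are means and bars are SD. The sets are apart on the left and overlap on the right, where naïve mice run from 17.1 to 29.7 and day 0 mice from 20.4 to 45.6.

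The OT-1 share moved with library depth among the day 0 mice. Over these 14 libraries, Pearson's r between share and productive templates was -0.68 (permutation test, p = 0.0036) and Spearman's rho was -0.70 (p = 0.00647). Without the 2 libraries farthest from the median depth, mice 2 and 3 of the 2.5e8 group, r was -0.62 (permutation test, p = 0.0310) and rho -0.63 (p = 0.0324). The deepest library, mouse 2 of the 2.5e8 group with 22304 productive templates, had the lowest day 0 share, and productive templates are also the denominator of the share. The part of depth in this relation was not tested. Because naïve libraries were among the shallower ones, the comparison was repeated with the 7 day 0 libraries that lay within the naïve range of depth, a choice made after the relation was seen. Their share was 27.1% ± 3.68 (SD, n = 7), from 21.1% to 31.3%, and the difference was -16.4 percentage points (exact permutation test, p = 0.00126). Per cell given, the ratio was then 1.56-fold higher on day 0 (95% interval 1.20 to 2.01, exact permutation test, p = 0.00505), a larger excess than over all 14 libraries. Depth here counts OT-1 templates too, so matching on it is not independent of the share or the ratio. These 7 libraries held 2683 to 4983 other productive templates, against 3184 to 6192 in naïve mice. The larger excess is thus not a value at equal numbers of other templates.

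**Figure D3:**
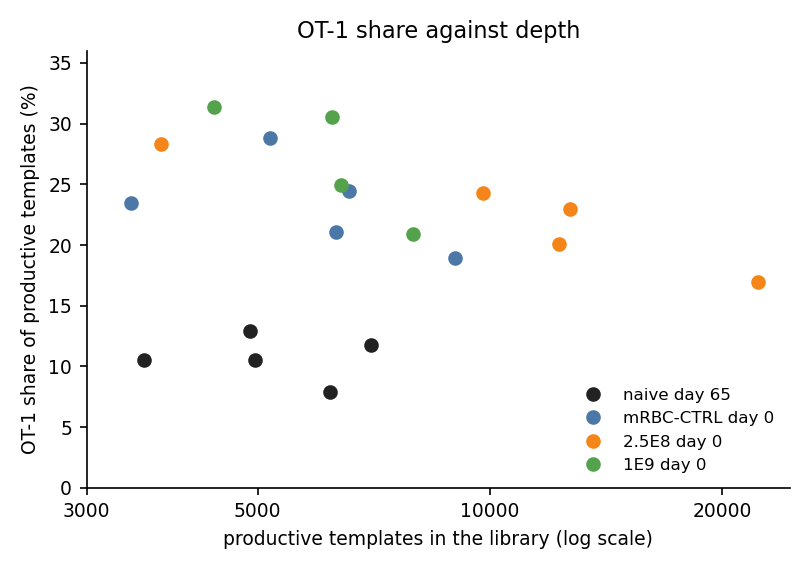
OT-1 share of productive templates (%, vertical axis) against productive templates per library (horizontal axis, log scale), 1 point per mouse, coloured by group. Day 0 shares are lower in deeper libraries (r = -0.68, n = 14), and the naïve libraries, with 3558 to 7017 templates, lie under day 0 libraries of like depth.

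The repertoire around OT-1, the endogenous T cells of the recipients, was then compared after the CDR3 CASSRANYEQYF was left out. It held 114028 productive templates, 2621 to 18519 per library, and distinct rearrangements, clonality, rearrangements seen once and sharing between mice were set to a depth of 2621 templates. The share of the largest clone was taken at full depth. The expected number of distinct rearrangements at that depth was 2317, 2190, 2066, 2197 and 2316 in naïve mice 1 to 5. On day 0 it ran from 1933 over a median of 2252 to 2495, so that all naïve mice fell inside the day 0 range. The means of 2217 ± 105 (SD, n = 5) and 2226 ± 173 (SD, n = 14) differed by -9.32 (95% interval -184 to 167, exact permutation test, p = 0.911).

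Setting libraries to 1 depth did not remove the relation to depth. Over the 14 day 0 libraries, distinct rearrangements at 2621 templates rose with the productive templates of the library (r = 0.85, rho = 0.97, p = 1e-05 each, the smallest p the 100000 permutations can give). Without the 2 libraries farthest from the median depth, r was 0.93 and rho 0.97. Clonality fell with depth (r = -0.87, rho = -0.95), and the share of rearrangements seen once rose with it (r = 0.82, rho = 0.97). All of these stayed under 0.05 after adjustment over the 4 relations to depth computed, that of the OT-1 share included. The part of depth in the day 0 ranges was not tested. In the 7 day 0 libraries within the naïve range of depth, distinct rearrangements were 2139 ± 110 (SD, n = 7), and the difference turned to 78.4 (95% interval -61.6 to 227, exact permutation test, p = 0.237).

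The endogenous repertoire was polyclonal in all mice. Clonality, which is 0 when all clones are equal and 1 when a single clone holds everything, was 0.00713 ± 0.00181 (SD, n = 5) in naïve mice and 0.00684 ± 0.00255 (SD, n = 14) on day 0 (exact permutation test, p = 0.816), and 0.00840 ± 0.00138 (SD, n = 7) in the depth-matched day 0 libraries (p = 0.184, exact permutation test). In naïve mice 83.6% ± 4.28 (SD, n = 5) of the rearrangements expected at that depth had a single template, against 83.5% ± 8.03 (SD, n = 14) on day 0. The largest endogenous clone held 0.172% ± 0.0492 (SD, n = 5) and 0.251% ± 0.194 (SD, n = 14) of endogenous templates (p = 0.423, exact permutation test). Without mouse 4 of the 1e9 group the difference went from -0.0793 to -0.0363 percentage points. OT-1 templates outnumbered those of the largest endogenous rearrangement 48.7 to 137.5 times in naïve mice and 41.1 to 365 times on day 0.

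The endogenous clone with the largest share was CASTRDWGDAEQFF, built from TCRBV19-01 and TCRBJ02-01, in mouse 4 of the 1e9 group. It had 39 of 4817 endogenous templates (0.810%) on day 0. In the same mouse it had 195 templates (2.96%) in blood on day 7 and 27 (0.481%) in the tumor. The clone with the most templates, from TCRBV05-01 and TCRBJ02-01, was in mouse 2 of the 2.5e8 group, the deepest library. It had 43 templates (0.232%) on day 0, 13 (0.265%) in blood on day 7 and 23 (0.174%) in the tumor. Each was thus found in 3 separate samples of its mouse, and neither rearrangement was in any other of the 19 libraries.

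None of the measures of how CDR3s were built passed the adjusted test. Mean CDR3 length was 41.5 bases in both, and the difference was -0.00496 bases (95% interval -0.114 to 0.104, exact permutation test, p = 0.923). A length of 14 residues was the most frequent, with 31.0% ± 0.496 (SD, n = 5) of endogenous templates in naïve mice and 30.8% ± 1.21 (SD, n = 14) on day 0. Non-productive rearrangements, which record recombination without selection on the protein, made up 32.6% ± 0.961 (SD, n = 5) and 31.9% ± 1.36 (SD, n = 14) of templates other than OT-1 (p = 0.307, exact permutation test). The mean number of inserted N bases, which the enzyme terminal transferase adds without a template, was 3.41, 3.35, 3.42, 3.41 and 3.44 in naïve mice 1 to 5. On day 0 it ran from 3.28 over a median of 3.34 to 3.45, and all naïve mice were above that median, mouse 2 by the least. This difference of 0.0633 bases (95% interval 0.00970 to 0.117) had p = 0.0242 in the exact permutation test and 0.145 after adjustment over the 6 endogenous measures, so it did not pass. As a description, other blood of the study had means of 3.41 in the same naïve mice on day 73, 3.40 in cured mice on day 65, and 3.38, 3.40 and 3.27 on day 7 in the mRBC-CTRL, 2.5e8 and 1e9 groups.

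**Figure D4:**
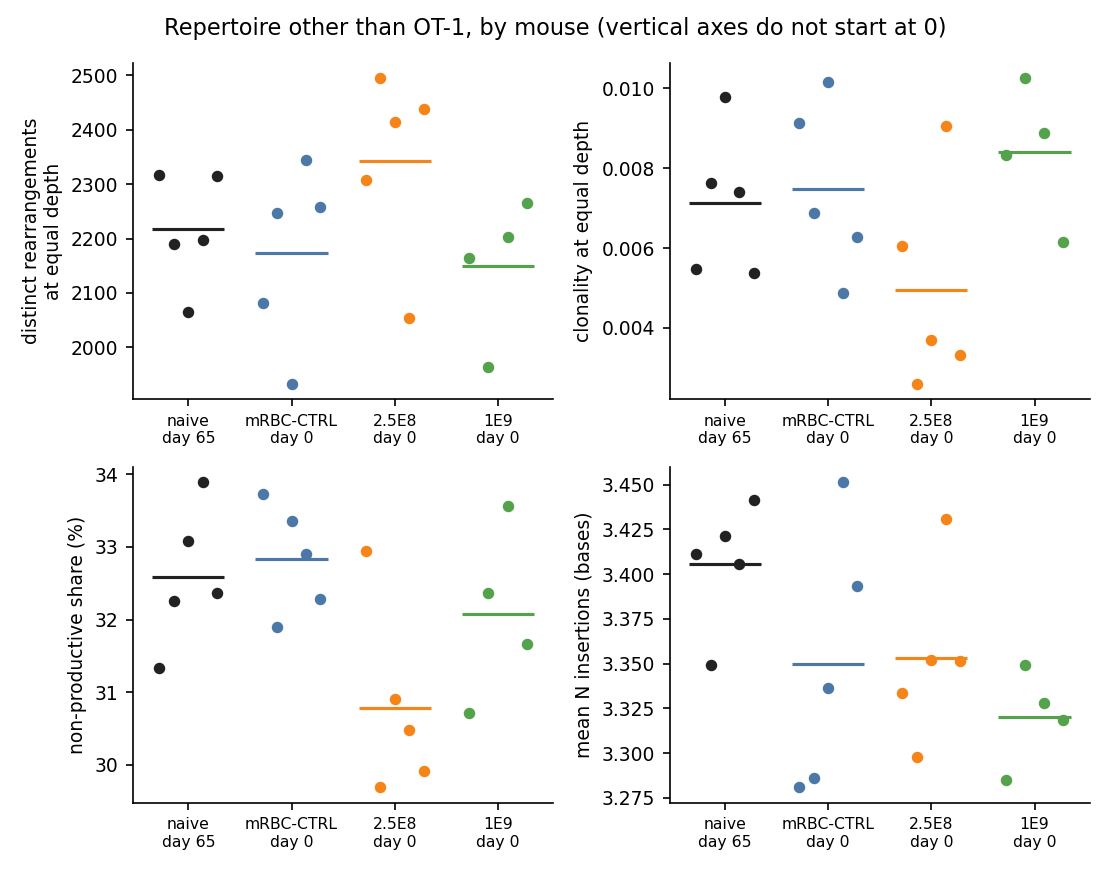
Endogenous repertoire without OT-1 in each mouse of the 4 groups (horizontal axes): distinct rearrangements and clonality at a depth of 2621 templates, non-productive share (%) and mean N insertions (bases) on the vertical axes, which do not start at 0. Points are mice and lines are group means; for distinct rearrangements all 5 naïve mice lie within the day 0 range of 1933 to 2495.

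V segments encode most of the variable part of the TCRβ chain outside the CDR3, and their usage was compared by edgeR's quasi-likelihood test on endogenous templates. Of 23 V segments tested, 0 were called at an adjusted p under 0.05 (background 0.0%), with 3 at an unadjusted p under 0.05, a smallest adjusted p of 0.354, and 0 calls by DESeq2. The log2 differences, naïve over day 0, ran from -0.32 to 0.26, with a median size of 0.06. The 3 with an unadjusted p under 0.05, named after their values were seen, were TCRBV03-01 (log2 difference -0.12, SE 0.06), TCRBV13-01 (0.13, SE 0.07) and TCRBV24-01 (0.26, SE 0.13), each with an adjusted p of 0.354.

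With OT-1 left out, the family of the OT-1 chain did not pass the test for a difference, which does not show that its levels were alike. The family TCRBV12, which encodes Vβ5, made up 7.41% ± 1.72 (SD, n = 5) of endogenous templates in naïve mice and 7.32% ± 0.808 (SD, n = 14) on day 0. The difference was 0.0948 percentage points (95% interval -1.09 to 1.28, exact permutation test, p = 0.869). TCRBV12-01, the segment of OT-1 itself, was at 3.71%, 5.68%, 2.86%, 5.48% and 3.83% in naïve mice 1 to 5 and between 2.92% and 4.84% on day 0. Naïve mice 2 and 4 were above the day 0 range and mouse 3 below it. The day 0 mice, with more OT-1 templates, did not have a higher mean (4.10% ± 0.491, SD, n = 14) than the naïve mice (4.31% ± 1.22, SD, n = 5; log2 difference 0.08, SE 0.10, edgeR adjusted p = 0.850).

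The other families chosen for description did not pass the test either. TCRBV13, the Vβ8 family and the largest, held 22.5% ± 0.327 (SD, n = 5) and 21.5% ± 0.951 (SD, n = 14), a difference of 0.986 percentage points (95% interval 0.0521 to 1.91). Its p was 0.0410 in the exact permutation test and 0.297 after adjustment over all 29 families. TCRBV01 (Vβ2) was at 5.89% and 5.94%, TCRBV29 (Vβ7) at 3.03% and 3.08%, and TCRBV15 (Vβ12) at 3.50% and 3.67%. Their differences of -0.0576, -0.0472 and -0.171 percentage points had 95% intervals of -0.720 to 0.609, -0.403 to 0.303 and -0.483 to 0.141.

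J segments supply the end of the CDR3, and edgeR's quasi-likelihood test called 0 of the 12 tested (background 0.0%), with 1 at an unadjusted p under 0.05. This was TCRBJ01-02, named after its values were seen. It was at 6.76%, 5.85%, 5.50%, 5.84% and 6.06% of endogenous templates in naïve mice 1 to 5 and ran from 6.17% over a median of 6.62% to 7.65% on day 0. Naïve mice 2 to 5 were under every day 0 mouse and mouse 1 was above the day 0 median. The log2 difference was -0.16 (SE 0.05, edgeR adjusted p = 0.0592). DESeq2 called it with an adjusted p of 0.0204, as did the exact permutation test of percent usage with 0.0392. Among non-productive rearrangements its log2 difference was 0.011 (edgeR adjusted p = 0.974). With each productive rearrangement counted once it was -0.018 (edgeR adjusted p = 0.722), and against the 1e9 group alone -0.077 (edgeR adjusted p = 0.337). For comparison, its level was 6.52% ± 0.568 (SD, n = 5) in the same naïve mice on day 73, 6.09% ± 0.547 (SD, n = 7) in cured mice on day 65 and 7.16% ± 0.889 (SD, n = 4) in mRBC-CTRL mice on day 7. TCRBJ02-07, the J segment of OT-1 and the most used of all, was at 27.4% ± 1.04 (SD, n = 5) and 26.3% ± 1.77 (SD, n = 14) with OT-1 left out (edgeR adjusted p = 0.419).

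**Figure D5:**
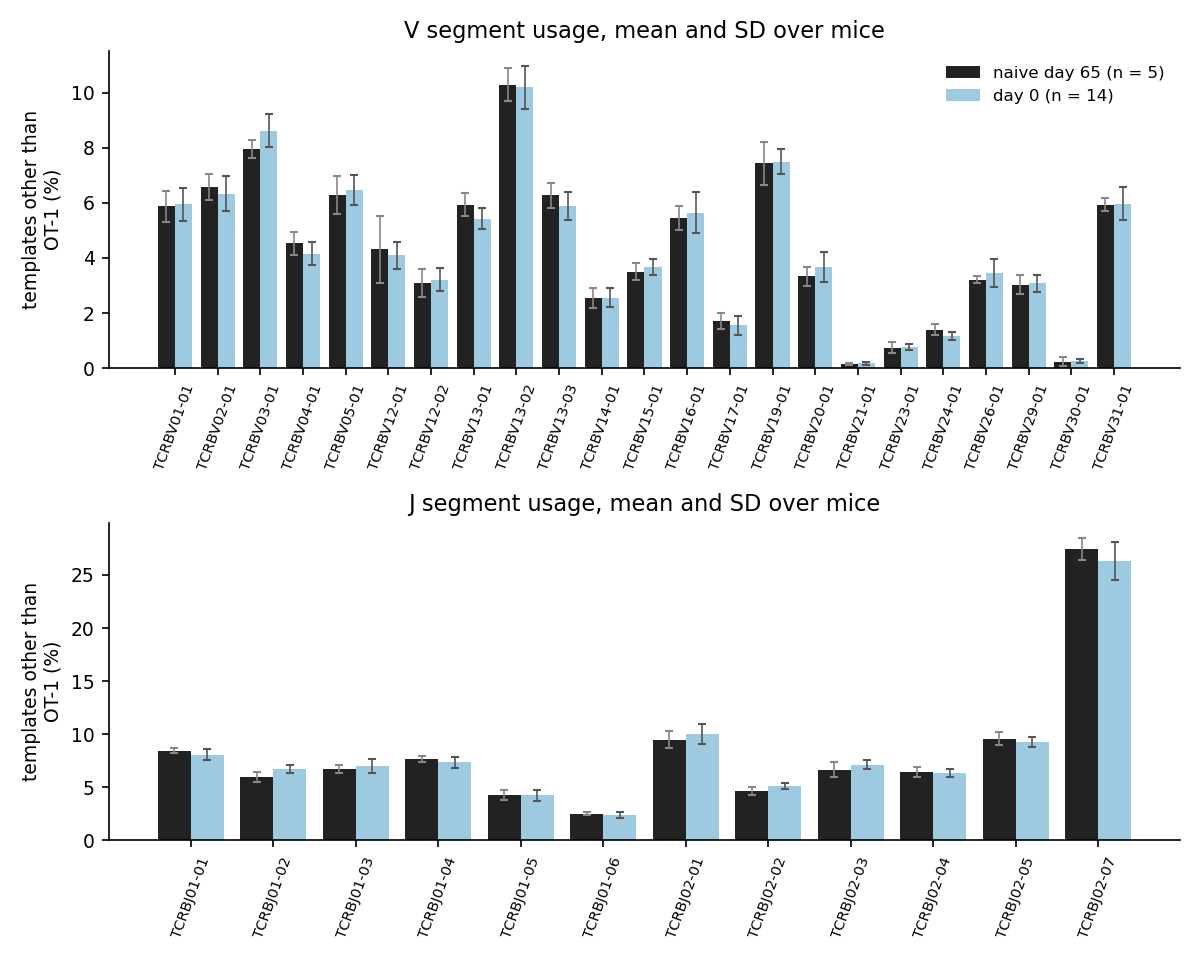
Usage of the 23 V segments (top) and 12 J segments (bottom) tested, in percent of endogenous productive templates (vertical axes). Bars are means over mice with SD, dark for naïve day 65 (n = 5) and light for day 0 (n = 14). No pair was called, and TCRBJ02-07, at 27.4% and 26.3%, is the highest.

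Most endogenous CDR3s were private to 1 mouse. Of 66853 different CDR3s, 59106 (88.4%) were in 1 library, 578 were in at least 5, 34 were in at least 10 and 0 were in all 19. The 578 were tested by edgeR, and 0 were called (background 0.0%). At an unadjusted p under 0.05 there were 62, of which 48 were lower and 14 higher in naïve mice. The filter counts libraries, and 14 of the 19 were from day 0, so it can favour CDR3s present there. This split is therefore not read as a direction. The smallest adjusted p was 0.397, and DESeq2 had 1 at an unadjusted p under 0.05 and called 0.

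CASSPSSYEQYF and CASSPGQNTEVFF were the most shared CDR3s, each found in 16 libraries. The first had more templates and is shown with its most widespread rearrangement, from TCRBV03-01 and TCRBJ02-07 with 2 inserted bases, because it also ends in the J segment that OT-1 uses. Capitals mark the CDR3 codons in the read.
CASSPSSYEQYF, 30 templates in 9 libraries: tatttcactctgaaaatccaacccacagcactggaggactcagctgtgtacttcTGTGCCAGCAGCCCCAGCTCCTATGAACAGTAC
It was in 3 of 5 naïve and 13 of 14 day 0 libraries, with 10 and 88 templates in all, and 85 of the 98 used TCRBV03-01. Its mean level was 3.60 ± 3.53 (SD, n = 5) per 10000 endogenous templates in naïve mice and 9.40 ± 6.27 (SD, n = 14) on day 0 (log2 difference -1.28, edgeR adjusted p = 0.594). It ranked first among endogenous CDR3s in 2 libraries, and no other CDR3 did so in more than 1.

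The other 4 of the 5 most shared CDR3s were at lower levels and were made in many ways. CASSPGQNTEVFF was in 16 libraries with 22 templates from 16 rearrangements and 10 V segments. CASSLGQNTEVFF was in 14, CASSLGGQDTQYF in 13 and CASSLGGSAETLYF in 13, with 30, 19 and 18 templates from 24, 14 and 15 rearrangements. The same protein junction was thus encoded by different rearrangements in different mice, and no inserted base was called in 53.3% of the templates of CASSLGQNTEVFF and 68.4% of those of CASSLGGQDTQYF. None of the 4 passed the test, with log2 differences from -0.41 to 0.64 and edgeR adjusted p-values from 0.961 to 0.998.

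Sharing of CDR3s between mice was of like size within and across the 2 sets. At a depth of 2621 templates, a pair of naïve mice was expected to share 44.3 ± 5.85 (SD, 10 pairs) endogenous CDR3s and a pair of day 0 mice 45.1 ± 6.41 (SD, 91 pairs). A naïve and a day 0 mouse shared 43.2 ± 6.10 (SD, 70 pairs). For identical nucleotide rearrangements the numbers were 2.85, 3.16 and 2.60. Pairs have mice in common, so these are descriptions with no test.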

How the data were processed

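The authors amplified TCRβ CDR3 regions from genomic DNA of blood with the immunoSEQ assay, a multiplex PCR that controls for primer bias, and then sequenced, collapsed and filtered them. The deposited values are a count of templates per nucleotide rearrangement, not normalized, and a deposited fraction of all templates, which is named a percent in its column and was not used. The genome build and aligner are not given in the sources used here, and no reads were processed. The authors' error correction is part of the counts, and intervals and floors (3 templates) cover counting error only. Precision follows depth, 3423 to 22304 productive templates per library.

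OT-1 was every productive template with the CDR3 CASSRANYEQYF. Groups and mouse numbers came from the sample labels, and the 3 day 0 groups were pooled because they had been treated alike until this bleed. Means were compared by 2-sided exact permutation tests over 11628 splits of the mice, with 95% intervals by inversion and Benjamini-Hochberg adjustment over 3 OT-1, 6 endogenous and 7 additional measures. Permutation p-values of correlations used 100000 resamples. Distinct rearrangements, clonality and overlap are expectations at 2621 templates by the hypergeometric formula. V segments, J segments and CDR3s found in at least 5 libraries were tested by edgeR 4.0.16 (quasi-likelihood, library size set to endogenous templates, segments with at least 10 templates in 5 libraries) at an adjusted p of 0.05; SE is the log2 difference over the root of its F value. The other 10 V and 2 J segments were not tested. DESeq2 1.42.0, TMM, other filters and definitions, single groups, a replicate block and leaving out each mouse were alternatives. The models, tests and formula were tested on simulated data. A RefSeq symbol matched 33 of 33 V and 14 of 14 J segments. Vβ names come from the synonyms of these symbols, which not every segment has. Python 3.11.15, scipy 1.17.1 and R 4.3.3 were used.

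Named were OT-1, the lymphoma clone, segments and CDR3s called, 5 V families, the 5 most shared CDR3s, any CDR3 ranked first in at least 3 libraries (0 were) and the largest endogenous clones. The members, lists and this rule were chosen with earlier results of these data known. A mouse number does not mark the same animal across groups, and the OT-1 share of same-numbered mice deviated from the group means with a correlation of -0.130 over 27 pairs.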

Additional observations from a re-analysis of the deposited data

Results flagged for a closer look

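In mouse 2 of the mRBC-CTRL group on day 0 the largest endogenous clone held 0.323% of endogenous templates, against 0.162% or less in the other 4 mice of the group. It stood apart by Dixon's test for outliers, alone among 40 tests (10 measures in 4 groups), of which chance picks out about 2.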

How the results depend on the processing

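The OT-1 share and the OT-1 to other ratio kept their direction under all alternatives, and their call under all but 1. In a replicate block by mouse number their differences were -13.5 percentage points and -1.41 (log2), each with p = 0.0625, the smallest p that 5 pairs allow in the exact sign-flip test. The ratio per 1e6 cells given was -0.41 with the block (exact sign-flip test, p = 0.125), -0.35 against mRBC-CTRL alone, -0.28 against the 2.5e8 group alone and -0.29 without rearrangements of 1 template, in none of which it passed. Leaving out single mice gave -0.48 to -0.28, and it did not pass without naïve mouse 1, 3 or 4, mRBC-CTRL mouse 1 or mouse 4 of the 2.5e8 group.

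Endogenous differences near 0 changed sign. Against the 1e9 group alone, distinct rearrangements differed by 68.4, clonality by -0.00128 and TCRBV12-01 usage by -0.047 (log2), and the largest clone's difference of -0.257 percentage points passed an unadjusted 0.05, where against mRBC-CTRL and the 2.5e8 group alone it was -0.00411 and -0.0122. Against mRBC-CTRL alone, distinct rearrangements differed by 44.2, clonality by -0.000338 and the non-productive share by -0.249 percentage points. Against the 2.5e8 group alone, CDR3 length differed by 0.0460 bases, and the non-productive share, by 1.80 percentage points, passed an unadjusted 0.05. Against the depth-matched day 0 libraries, added after seeing the data, distinct rearrangements differed by 78.4 and clonality by -0.00127. Leaving out single mice gave -0.0923 to -0.0363 percentage points for the largest clone, 0.372 to 1.01 for the non-productive share, -34.2 to 28.5 distinct rearrangements, -0.000369 to 0.000733 in clonality, -0.0409 to 0.0263 bases of CDR3 length and -0.036 to 0.17 (log2) for TCRBV12-01.

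N insertions lost their unadjusted call against mRBC-CTRL (0.0561 bases) and the 2.5e8 group (0.0527 bases) alone, with the replicate block (0.0657 bases), with each rearrangement counted once (0.0460 bases), and without naïve mouse 3 or 5, with a range of 0.0545 to 0.0774 bases over single mice left out. For J segments, 1 was called by DESeq2, by exact permutation tests of percent usage and against mRBC-CTRL alone (TCRBJ01-02 in each) and 1 against the 1e9 group alone (TCRBJ02-01). Leaving out single mice gave 0 to 1 calls, with TCRBJ01-02 called without naïve mouse 1 or 1e9 mouse 2, 3 or 4. Its log2 difference of -0.16 was -0.018 with each rearrangement counted once, -0.077 against the 1e9 group alone and 0.011 in non-productive rearrangements, an alternative added after seeing the data. V segment and shared CDR3 counts stayed at 0 under all alternatives run. The causes of these changes were not tested. Distinct rearrangements and clonality moved with library depth, which limits what their comparison can show.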
